A study of Mus musculus with 52 samples.

Results

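Peaks of accessible chromatin from 12 ATAC-seq libraries of sorted mouse endothelial cells (ECs) merged into 66740 regions, and 1732 of these had a peak in both libraries of cerebellum ECs with stabilized beta-catenin and in none of the other 10 libraries. These 1732 stabilized-only regions are the subject here. They were chosen by peak presence and peak height: a peak counted when its fold enrichment over the local background was above 2 and its -log10 q was above 2, peaks that overlapped by at least 1 bp shared a region, and the mitochondrial chromosome was left out. Presence and height are therefore described without a test. In all, 4822 regions had peaks in both stabilized and in neither WT cerebellum library, and peaks in the 8 pituitary libraries removed the rest.

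WT mice carried Tie2-GFP, a transgene that marks ECs for sorting. Stabilized mice carried Tie2-GFP with Pdgfb-CreER, an inducible Cre active in ECs, and BcatEx3fl, a Ctnnb1 allele from which Cre removes exon 3, the part that directs beta-catenin to degradation, and received 100 ug of 4-hydroxytamoxifen at postnatal day 10. In the sorted libraries stabilized beta-catenin, the Cre driver and the drug thus came together and cannot be told apart. GFP-positive cells of adult males were sorted from cerebellum, anterior pituitary and posterior pituitary, with 2 ATAC-seq and 2 RNA-seq libraries per genotype and tissue, and GFP-negative cells gave RNA-seq libraries as well. Cortex was sampled in other adult males by RiboTag, in which RNA bound to tagged EC ribosomes is pulled down, again with 2 libraries per genotype. There WT mice carried RiboTag with Pdgfb-CreER and stabilized mice these alleles with BcatEx3fl, so both had the Cre driver, and both received 4-hydroxytamoxifen. The study's methods describe the 2 libraries of a group as biological replicates, with many mice pooled for each pituitary replicate.

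Beta-catenin is the nuclear arm of canonical Wnt signaling. It joins DNA-binding proteins of the TCF/LEF family and with them activates transcription, and it is destroyed in the cytoplasm when no Wnt ligand is present. In brain ECs the pathway maintains the blood-brain barrier (BBB), with its tight junctions and nutrient transporters, whereas pituitary ECs are permeable. Cerebellum ECs are BBB-type cells in which the pathway is normally active. Accessible chromatin away from transcription start sites often marks enhancers, whose target gene position alone does not give, so the nearest protein-coding start serves below only as an address.

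The sequences here lie near the summits of stabilized-only regions whose nearest gene belongs to the Wnt pathway or the BBB program or was called in cerebellum ECs. They show the TCF/LEF letters in their setting. Each was read from the GRCm38.p6 (mm10) genome of RefSeq and is written 5′ to 3′ on the strand that carries ATCAAAG or TTCAAAG, with the match nearest to the summit in capitals.
Tnfrsf19, chr14:61064013-61064053, minus strand: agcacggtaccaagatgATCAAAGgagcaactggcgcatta
Lef1, chr3:130937017-130937057, minus strand: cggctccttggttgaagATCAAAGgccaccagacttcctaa
Nkd2, chr13:73881455-73881495, plus strand: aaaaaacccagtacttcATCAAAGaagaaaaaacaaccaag
Znrf3, chr11:5422171-5422211, minus strand: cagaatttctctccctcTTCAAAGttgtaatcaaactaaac
Sox17, chr1:4641101-4641141, plus strand: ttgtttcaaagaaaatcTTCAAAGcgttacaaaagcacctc
Tjp1, chr7:65282183-65282223, plus strand: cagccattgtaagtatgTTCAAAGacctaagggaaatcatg
Slc7a1, chr5:148356108-148356148, plus strand: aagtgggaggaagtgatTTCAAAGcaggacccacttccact
Abcg2, chr6:58677901-58677941, plus strand: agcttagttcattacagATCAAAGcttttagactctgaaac
Nrp2, chr1:62539941-62539981, plus strand: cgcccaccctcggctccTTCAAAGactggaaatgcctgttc
Dusp1, chr17:26577324-26577364, minus strand: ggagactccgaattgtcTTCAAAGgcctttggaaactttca
Within 100 bp of the summit the regions near Tnfrsf19, Nkd2, Sox17 and Tjp1 held the letters 2 times, and the others shown held them once. Tnfrsf19, Nkd2 and Znrf3 encode a receptor and regulators that Wnt signaling is known to induce. Lef1 and Sox17 encode transcription factors, Tjp1 a tight junction scaffold, and Slc7a1 and Abcg2 transporters. Nrp2 encodes a co-receptor of VEGF and semaphorins, and Dusp1 a phosphatase that growth and stress signals induce.

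Several libraries stood apart. Stabilized cerebellum ECs gave 33514 and 31669 peaks past the filter and WT cerebellum ECs 26394 and 24020, a difference that moves with the absence of WT peaks and whose part in it was not tested. Without stabilized posterior pituitary replicate 2 among the libraries a region had to be absent from, 1951 regions would have been kept, and without WT cerebellum replicate 1, 2450. RNA libraries of sorted ECs held 17.3 to 33.5 M estimated reads and those of cortex bound RNA 7.06 to 21.4 M. One stabilized anterior pituitary RNA library, replicate 2, has a tissue label that names the posterior lobe while its title names the anterior. As a check of the sort, 10 endothelial markers summed to 3596 and 3328 TPM (transcript abundance scaled by length and depth) in WT and 2769 and 2359 TPM in stabilized cerebellum ECs, and 10 mural markers to 1063 and 877 TPM against 692 and 494 TPM, with no gene of either list called there.

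The stabilized-only regions were low peaks. Their fold enrichment had a median of 3.89 in replicate 1 and 3.65 in replicate 2, with highest values of 15.2 and 15.7. The 26036 other regions present in both stabilized cerebellum libraries had medians of 8.66 and 8.16. By mean fold enrichment 1350 of the 1732 (77.9%) lay under the lower quartile of those other regions and 43 lay over their median. A mean over 5 was reached by 347 regions and a mean over 10 by 21. Replicate 1 gave the higher value in 1012 of them (58.4%). Median width was 385 bp, against 844 bp for the others. Regions found in a single other group alone were about as low and narrow. Their median fold enrichment was 3.77 for WT cerebellum, 4.30 for stabilized anterior and 3.69 for stabilized posterior pituitary ECs, against 3.80 for stabilized-only regions. Their median widths were 368, 331 and 363 bp. The regions of both cerebellum genotypes without a pituitary peak had medians of 7.05 and 632 bp.

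**Figure D1:**
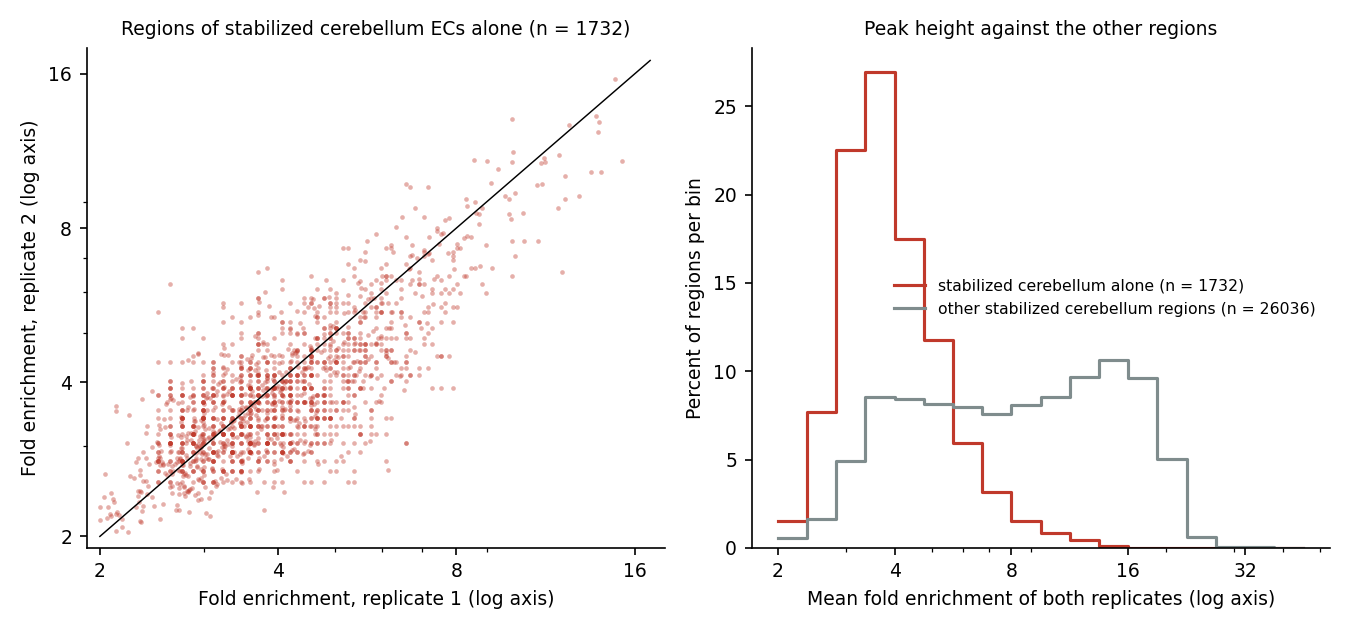
Left, fold enrichment of each of the 1732 stabilized-only regions in stabilized cerebellum replicate 1 (x axis) and replicate 2 (y axis), on log axes with the line of equality. Right, percent of regions by mean fold enrichment (log axis) for the 1732 regions and the 26036 other stabilized cerebellum regions, whose replicate medians are 8.66 and 8.16 against 3.89 and 3.65.

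The deposited lists were already limited by the peak caller, so few listed peaks fell to the filter (26394 of 26884 passed it in WT cerebellum replicate 1), and signal under the caller's limit cannot be seen in them. Before the filter, 45 of the 1732 regions lay under a listed peak of another library, among them 16 in WT cerebellum replicate 1, 11 in WT cerebellum replicate 2 and 12 in stabilized posterior pituitary replicate 2. A further 1334 regions were kept out by a single other library, 714 of them by WT cerebellum replicate 1 and 216 by stabilized posterior pituitary replicate 2. Just inside the thresholds lay chr5:15507920-15508223, with a lowest fold enrichment of 2.0016, and chr14:122483940-122484296, with a lowest -log10 q of 2.0054. Just outside lay chr11:75631674-75632080, where WT cerebellum replicate 1 had a peak with a -log10 q of 2.0038.

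Few stabilized-only regions were at promoters. By their summits 792 (45.7%) were intergenic, 779 intronic, 82 (4.73%) exonic and 79 (4.56%) within 1000 bp of a transcription start. Of the other stabilized cerebellum regions 43.0% were at promoters, and of the 13591 regions found in all 12 libraries 70.3%. The median distance to the nearest start was 26380 bp, against 4477.5 bp for the other regions, and 347 regions lay over 100 kb away. The 845 regions shared by both cerebellum genotypes and absent from the pituitary were placed much like the stabilized-only ones, with 4.85% at promoters and a median distance of 28694 bp. Median GC content within 100 bp of the summit was 48.3%, against 57.2% in the other regions. The summit windows of 151 regions (8.72%) were mostly repeat-masked, against 3.31% of the others. Other sets lay on both sides of this share. It was 36.1% for the 119 regions of WT cerebellum ECs alone and 5.92% for those of both cerebellum genotypes. For regions of stabilized anterior or posterior pituitary ECs alone it was 3.79% and 0.629%.

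**Figure D2:**
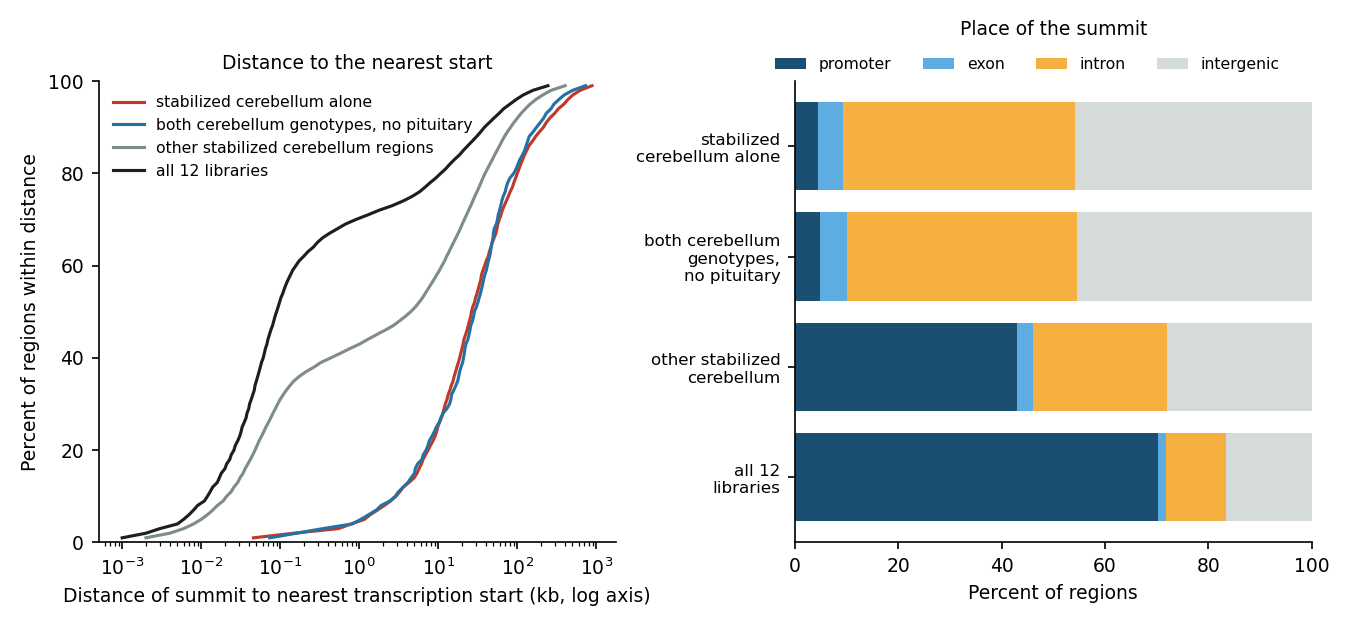
Distance from summit to the nearest transcription start as a cumulative percent of regions, and the percent of regions at promoters, exons, introns and between genes, by set. Stabilized-only regions follow those of both cerebellum genotypes (4.56% and 4.85% at promoters), apart from the other stabilized cerebellum regions (43.0%) and those of all 12 libraries (70.3%).

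Distance to chromatin already accessible in WT varied widely. The median gap to the nearest region of WT cerebellum ECs was 21194 bp, 107 regions (6.18%) lay within 1 kb of one and 575 (33.2%) within 10 kb. Near Notum, which encodes a secreted enzyme that inactivates Wnt ligands, chr11:120662768-120663124 (fold enrichment 4.01 and 4.37) lay 1403 bp from a WT region. Near Tjp1 the gap of chr7:65281813-65282403 (fold enrichment 5.86 and 4.75) was 88031 bp.

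The regions had 1359 nearest genes, 6.17% of 22028 protein-coding genes. Of these genes 1112 were nearest to 1 region, 177 to 2 and 50 to 3. Zfp386 was nearest to 29, a zinc finger gene beside the immunoglobulin heavy chain locus (Igh), which B cells rearrange to make antibodies. That locus, chr12:113254830-116010093 with 217 annotated genes and gene segments, held 36 stabilized-only regions with mean fold enrichments of 2.47 to 3.99, and 3 of them had TCF/LEF letters. Over the whole locus the stabilized cerebellum libraries had 104 and 83 peaks past the filter, stabilized posterior pituitary replicate 2 had 25, and each of the other 9 libraries had 1 to 3. Igh RNA in cerebellum ECs summed to 8.94 and 4.71 TPM in WT and 0.405 and 1.85 TPM in stabilized libraries. In the anterior pituitary the Igh sum was 0 and 1.19 TPM in WT and 57.0 and 9.87 TPM in stabilized libraries. In the posterior pituitary it was 0.144 and 0 TPM against 91.8 and 2.46 TPM. The sum was thus higher in stabilized libraries of both lobes, mostly in replicate 1, and lower in those of the cerebellum. These differences were not tested. Other B-lineage genes in cerebellum ECs were at low levels that went both ways. Jchain, the joining chain of antibodies, was at 0 in both WT libraries and at 0 and 6.36 TPM in the stabilized ones, Igkc, a light chain, at 1.68 and 0.8995 TPM against 0.131 and 4.52 TPM, and Cd79a, of the B cell receptor, at 0 and 0.405 TPM against 1.60 and 0 TPM. The part of B-lineage cells in these peaks was not tested. Zfp386 itself had 23.4 and 20.6 CPM in WT and 36.9 and 39.9 CPM in stabilized cerebellum ECs (log2 fold change 0.80 ± 0.46, adjusted p = 0.552), where CPM are counts scaled to library size and the error is a standard error, as throughout. Its CPM did not overlap between groups and the difference did not pass the test, and its TPM, which are scaled by transcript length, did overlap, with 10.1 and 6.89 in WT and 7.01 and 7.29 in stabilized libraries.

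A second dense stretch, chr7:7153687-12735004, among 44 annotated genes that include the Vmn2r vomeronasal receptors, held 19 stabilized-only regions. The stabilized cerebellum libraries had 69 and 47 peaks there, the WT cerebellum libraries 13 and 10, and the pituitary libraries 10 to 20. At Pdgfb, whose regulatory sequences drive the CreER transgene, 3 regions lay within 100 kb, with mean fold enrichments of 2.93, 3.31 and 3.10. No region lay within 100 kb of Ctnnb1, of Tek, whose Tie2 promoter drives the GFP, or of Axin2, a general Wnt target.

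The letters ATCAAAG or TTCAAAG, searched on both strands within 100 bp of the summit, were in 340 of the 1732 regions (19.6%, 95% exact binomial interval 17.8 to 21.6%). In windows of the same length they were in 9.09% of the other stabilized cerebellum regions and in 3.71% of the regions of all 12 libraries. Other sets lay on both sides of this share. They were in 194 of the 845 regions of both cerebellum genotypes (20.2 to 25.9%). They were also in 27.5% (22.1 to 33.6%) of the 247 regions found in both stabilized pituitary lobes and in no WT pituitary or cerebellum library. They were in 17.7% (15.0 to 20.8%) of the 694 regions of stabilized cerebellum and stabilized pituitary ECs without a WT peak, in 14.6% (11.7 to 17.9%) of the 528 regions of stabilized anterior pituitary ECs alone and in 18.2% (12.6 to 25.1%) of the 159 of the posterior lobe alone. Of the 119 regions of WT cerebellum ECs alone 9.24% had them. Intervals cover counting error only, and none of these differences was tested.

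Base composition and promoter position moved with these shares. Outside promoters the letters were in 20.1% of the stabilized-only regions and 13.7% of the other stabilized cerebellum regions. In windows under 40% GC the shares were 38.4% and 27.1%, from 40 to 50% GC 23.8% and 18.6%, from 50 to 60% GC 11.8% and 10.5%, and above that 1.72% and 2.002%. The letters were more frequent in higher peaks, with 15.01% in the lowest quartile of mean fold enrichment, 15.97% and 19.9% in the middle ones and 27.6% (23.4 to 32.0%) in the highest, while median GC went from 50.7% to 46.8%. Matches were densest near the summit, with 5.20 per 100 regions within 20 bp of it, as many at 20 to 39 bp, and 2.25 at 180 to 199 bp, against 2.44 and 1.25 in the other regions. At least 2 matches were found in 43 regions and 3 in 2.

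Letters of 19 other families were searched the same way, and shares moved in both directions. ACAATG, the core of SOX factors, was in 18.3% of the stabilized-only and 11.3% of the other stabilized cerebellum regions, and outside promoters in 18.996% and 16.8%. GTAAACA of FOX factors was in 7.97% and 3.81% (outside promoters 7.99% and 5.42%), and AGATAAG of GATA factors in 4.73% and 2.21% (4.84% and 3.35%). CAGGAAG or CCGGAAG of ETS factors, the family most tied to EC identity, was in 18.8% and 27.0%, and outside promoters in 18.996% and 27.8%. CACACCC of KLF factors was in 5.08% and 7.18% (outside promoters 4.96% and 8.002%), and CAGCAGG of ZIC factors in 13.9% and 11.2% (outside promoters 14.04% and 14.02%). In the regions of both cerebellum genotypes the last 2 were in 13.4% and 23.4%. TGACTCA of AP-1 was in 5.54% and 5.88%, and outside promoters in 5.63% and 8.51%. The E-box letters CAGATG or CAGCTG were in 25.2% and 21.5% (outside promoters 25.1% and 26.2%), GGAATG of TEAD factors in 13.1% and 9.95% (13.5% and 12.4%) and TTCNNNGAA of STAT factors in 8.60% and 5.88% (8.89% and 7.42%). In windows under 40%, from 40 to 50%, from 50 to 60% and over 60% GC, the SOX letters were in 29.9%, 22.97%, 11.3% and 3.45% of the stabilized-only and 28.6%, 22.2%, 12.7% and 3.66% of the other stabilized cerebellum regions, on both sides of each other. The ZIC letters were in 10.2%, 11.8%, 18.1% and 12.9% of the stabilized-only regions and 5.05%, 10.3%, 15.3% and 8.58% of the others, higher in each of the 4 GC ranges, where outside promoters the shares were 14.04% and 14.02%. In those ranges the FOX letters were more frequent and the ETS letters less frequent in stabilized-only regions throughout, and the GATA, KLF and AP-1 letters went both ways. Outside promoters, 1396 stretches of 6 letters were in at least 5% of stabilized-only regions. They were ranked by the ratio of that share to the share in the other stabilized cerebellum regions. The first 25 were rich in A and T, led by TATACA (7.68% and 3.75%), and none was part of ATCAAAG or TTCAAAG. None of these differences was tested. A match is a stretch of letters and not a bound site.

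**Figure D3:**
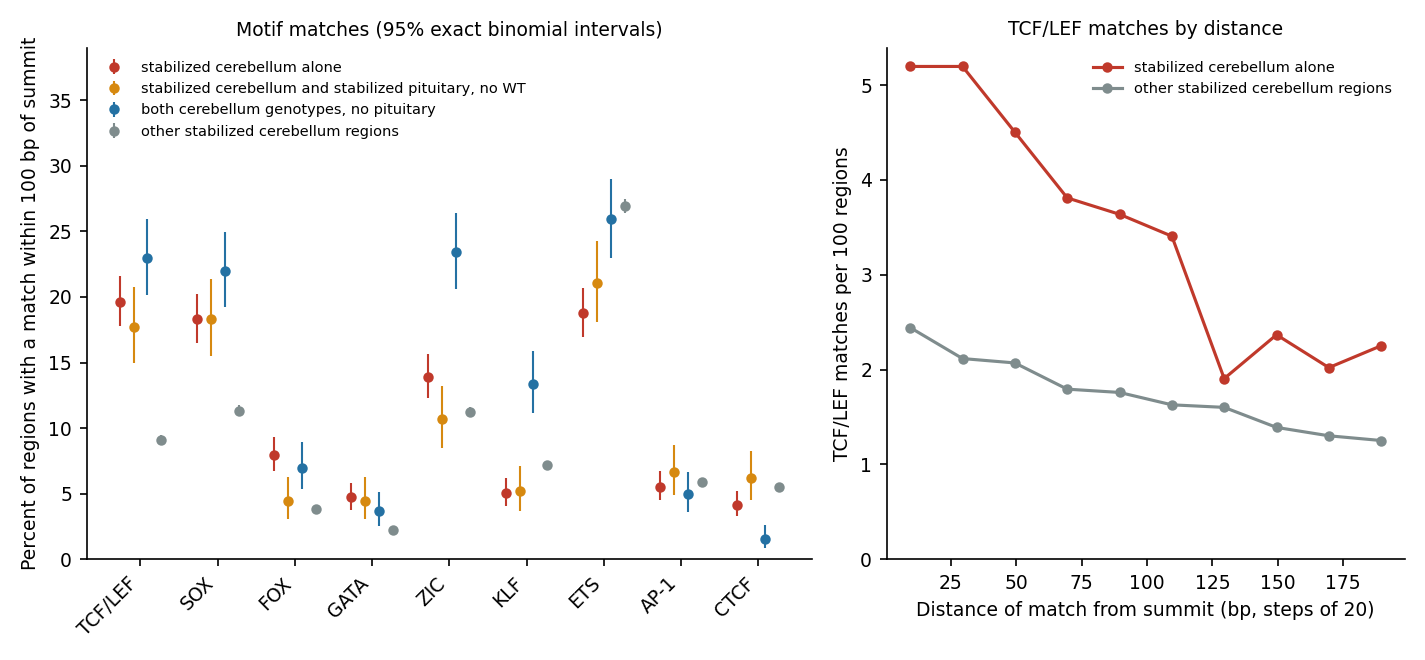
Percent of regions with at least 1 match of each motif within 100 bp of the summit, for stabilized-only regions and 3 other sets with 95% exact binomial intervals, and TCF/LEF matches per 100 regions by distance from the summit in bp. TCF/LEF letters were in 19.6% of stabilized-only regions and 9.09% of the other stabilized cerebellum regions.

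The highest peak was chr15:100269675-100270455 (fold enrichment 14.8 and 15.7), 10822 bp from Tmprss12 and mostly repeat-masked. The next was chr5:53497142-53497785 (fold enrichment 13.8 and 13.3) in an intron, 31247 bp from the start of Rbpj, the DNA-binding partner of Notch. Lcmt1, Olfr370, Pot1a, Dnah2, A1bg, Brinp2, Zfp608 and Frmd6 were nearest to the other 8 of the top 10, of which 2 had TCF/LEF letters and 3 were mostly repeat-masked. Tmprss12, Olfr370 and A1bg did not pass the filter on low counts, and none of the others was called in cerebellum ECs. Dnah2, a dynein heavy chain, was called higher in cortex bound RNA, with 0 and 0 CPM in WT and 3.78 and 2.44 CPM in stabilized libraries (adjusted p = 0.00131), a call lost with length-scaled counts and in the fit of the cortex libraries alone. Rbpj had 66.4 and 58.7 CPM in WT and 56.2 and 108 CPM in stabilized cerebellum ECs (log2 fold change 0.39 ± 0.37, adjusted p = 0.762). Zfp608, a zinc finger gene nearest to 6 regions, had 84.4 and 52.8 CPM in WT and 85.8 and 58.9 CPM in stabilized ECs (0.08 ± 0.39, adjusted p = 1). The groups overlapped for both genes.

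RNA is the measure that the rule did not use. Of the 1359 nearest genes 1126 passed the filter on low counts in sorted ECs. A gene was called when edgeR's quasi-likelihood test gave an adjusted p under 0.05 over all 17915 genes and the change was at least 2-fold. In cerebellum ECs 2 nearest genes were called higher (0.178%, where 0.0754% of all protein-coding genes tested were called) and 10 lower (0.888%, background 0.644%), so both shares were small and the lower share was near the background. The median log2 fold change was -0.03 for the nearest genes and -0.06 for all. An unadjusted p under 0.05 was reached by 63 nearest genes in the higher (5.595%, of all protein-coding genes 2.63%) and 94 in the lower direction (8.35%, of all 7.75%). A fit of the 4 cerebellum libraries alone called none (of all protein-coding genes 0.0166% in each direction), and counts scaled by transcript length called 1 lower (0.0890%, of all 0.371%), a share under the background. DESeq2 called 12 higher (1.07%, of all 0.631%) and 37 lower (3.29%, of all 3.80%), the fit without the filter on low counts 15 (1.23%, of all 0.533%) and 34 (2.79%, of all 2.34%), and the fit without the library with the divergent tissue label 11 (0.952%, of all 0.305%) and 23 (1.99%, of all 1.65%). Without stabilized replicate 1 there were 5 higher (0.430%, where 0.309% of all protein-coding genes were) and 38 lower (3.27%, of all 2.76%). Leaving out stabilized replicate 2 gave 5 higher (0.429%, of all 0.141%), and leaving out WT replicate 1 gave 16 lower (1.38%, of all 1.24%).

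**Figure D4:**
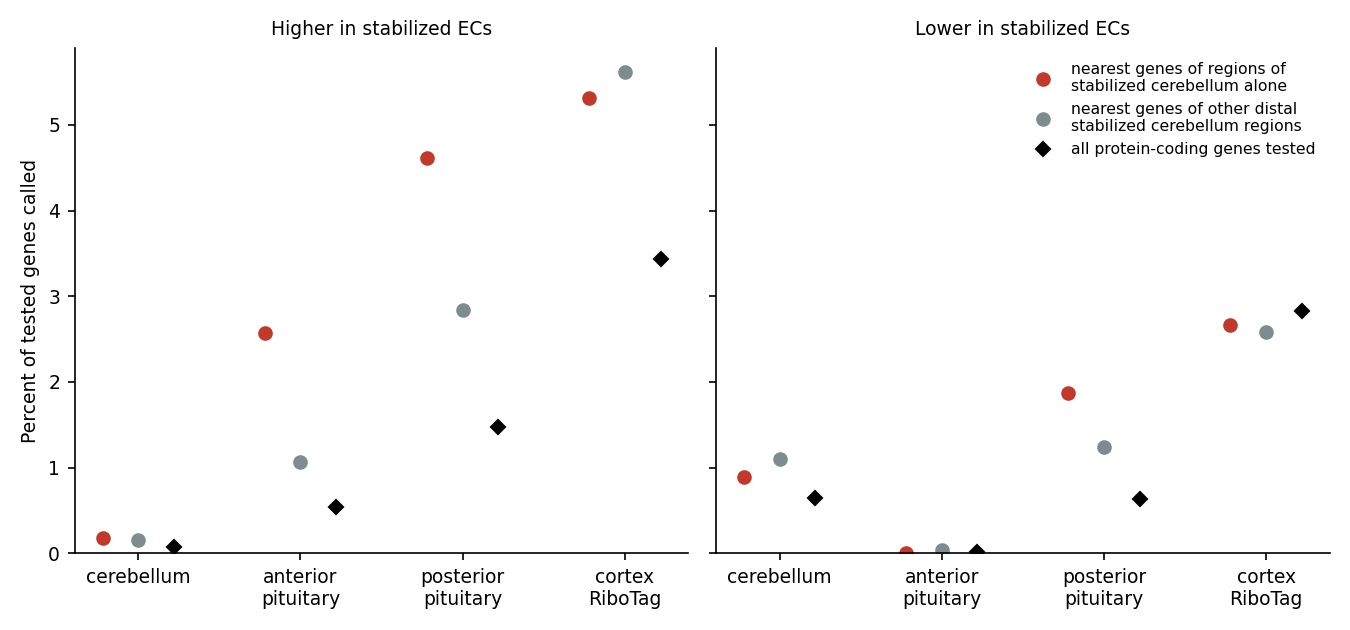
Percent of tested genes called higher or lower in stabilized ECs of each tissue, for the nearest genes of stabilized-only regions, those of the other distal stabilized cerebellum regions and all protein-coding genes tested. In cerebellum 0.178% of the nearest genes were higher against 0.0754% of all, and in the anterior pituitary 2.58% against 0.535%.

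The 2 genes called higher in cerebellum ECs were Lepr and Pcdh7. Lepr, the leptin receptor, with chr4:101769298-101770389 (fold enrichment 3.47 and 3.78) in an intron, had 18.8 and 24.7 CPM in WT and 61.3 and 110.3 CPM in stabilized ECs (log2 fold change 1.98 ± 0.38, adjusted p = 0.0366). Pcdh7, a protocadherin whose start is 1203894 bp from a fully repeat-masked region, had 1.92 and 1.74 CPM in WT and 5.598 and 16.6 CPM in stabilized ECs (2.60 ± 0.46, adjusted p = 0.0226). Both stabilized libraries were above both WT libraries for each gene. Both calls were lost with length-scaled counts, and that of Lepr also without stabilized replicate 2 or WT replicate 1. In cortex bound RNA Pcdh7 was called in the other direction (-1.77 ± 0.25, adjusted p = 0.0053), a call also lost with length-scaled counts.

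The 10 genes called lower were Nrp2, Plpp3, Cemip2, Dusp1, Sncaip, Alox12, Tsc22d3, Cited2, Map1b and Gsn. Nrp2, whose region 163238 bp upstream holds the letters printed above in repeat-masked sequence, had 138 and 146 CPM in WT and 39.3 and 55.9 CPM in stabilized ECs (log2 fold change -1.58 ± 0.26, adjusted p = 0.0129). Plpp3, which breaks down lysophosphatidic acid, had 41.6 and 82.9 CPM in WT and 20.01 and 12.6 CPM in stabilized ECs (-1.93 ± 0.36, adjusted p = 0.0321). Cemip2, a cell surface protein of hyaluronan turnover, had 45.3 and 39.9 CPM in WT and 12.8 and 11.9 CPM in stabilized ECs (-1.79 ± 0.31, adjusted p = 0.0192). In all of these both stabilized libraries were below both WT libraries. Dusp1 had 310.5 and 73.1 CPM in WT and 23.5 and 22.8 CPM in stabilized ECs (-3.05 ± 0.55, adjusted p = 0.0272), with its high value in WT replicate 1. In that library 7 immediate early genes summed to 874 TPM, against 79.9 in WT replicate 2 and 70.3 and 52.9 in the stabilized libraries, with 1 of the 7 called lower and a median log2 fold change of -2.83 over the list, whose part in the lower calls was not tested. Dusp1 kept its call without that library.

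Sncaip, a synuclein-binding protein, had 22.6 and 13.5 CPM in WT and 1.05 and 0.682 CPM in stabilized ECs (log2 fold change -4.37 ± 0.63, adjusted p = 0.00773). Alox12, a lipoxygenase with 2 regions, had 21.1 and 16 CPM in WT and 4.198 and 2.87 CPM in stabilized ECs (-2.39 ± 0.39, adjusted p = 0.0143), and Tsc22d3, a glucocorticoid target, had 36 and 65.4 CPM in WT and 6.403 and 12.2 CPM in stabilized ECs (-2.44 ± 0.46, adjusted p = 0.0313). Again the groups did not overlap, and in cortex bound RNA Tsc22d3 was called higher (1.41 ± 0.36, adjusted p = 0.0488), a call lost without either stabilized library or WT replicate 2, with the replicate block and with length-scaled counts. Cited2, a transcriptional coregulator whose region is 591313 bp from its start, had 10.8 and 10.2 CPM in WT and 3.88 and 3.59 CPM in stabilized ECs (-1.49 ± 0.28, adjusted p = 0.0321), and was the 1 call kept with length-scaled counts. Map1b, a microtubule-binding protein, gave -1.48 ± 0.28, adjusted p = 0.0351. Gsn, the actin-severing gelsolin, had 0.572 and 5.75 CPM in WT and 0 and 0.0455 CPM in stabilized ECs (adjusted p = 0.0366), and its call was lost without WT replicate 2, as was that of Tsc22d3. Leaving out stabilized replicate 2 ended the calls of Plpp3, Cemip2, Cited2 and Map1b, leaving out WT replicate 2 those of Plpp3 and Cited2, WT replicate 1 those of Cited2 and Map1b, and stabilized replicate 1 that of Map1b. Summed markers of several cell types moved in the same direction as these calls. The 4 fibroblast markers summed to 9.11 and 3.52 TPM in WT and 2.02 and 0.0706 TPM in stabilized cerebellum ECs, with 1 called lower, and 8 pituitary endocrine markers, of which 7 were tested, to 35.7 and 32.9 TPM against 1.32 and 13.9 TPM, with 1 called lower. Oligodendrocyte markers summed to 49.3 and 37.5 TPM in WT and 19.1 and 33.2 TPM in stabilized libraries. Neuron markers summed to 23.6 and 20.1 TPM against 14.4 and 19.7 TPM, and lymphatic markers to 11.5 and 11.6 TPM against 7.07 and 10.9 TPM. No gene of these lists was called. Astrocyte sums, and those of microglia and macrophages, overlapped between genotypes. The 5 erythrocyte markers summed to 65220 TPM in WT replicate 1 and 7177 in replicate 2, and to 12310 and 13270 TPM in the stabilized libraries, with none called. The part of all these markers in the lower calls was not tested.

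Genes on the lists used here were frequent addresses. Of 128 genes on 11 lists of Wnt, barrier, endothelial and related genes 39 (30.5%) were nearest to a stabilized-only region, 59 regions in all, where 6.17% of all protein-coding genes were, a difference that was not tested. This was not particular to Wnt and barrier lists. Among 12 Wnt receptors and adaptors 1 was nearest, among 11 endothelial factors 4, among 14 arterial and Notch genes 4, and among 7 immediate early genes none. Cell type markers differed by list. Of mural markers 4 of 10 were nearest, of endothelial 1 of 10, astrocyte 1 of 8, oligodendrocyte 2 of 9 and pituitary endocrine 1 of 8. No microglia and macrophage, neuron, lymphatic, fibroblast or erythrocyte marker was. The other distal stabilized cerebellum regions also had many of these genes nearest, 111 of 128 (86.7%) where 28.6% of all protein-coding genes were. In cerebellum ECs none of the 39 was called higher and 1, Nrp2, was called lower. In anterior pituitary ECs 9 were called higher and none lower, in posterior pituitary ECs 12 higher and 1 lower, and in cortex bound RNA 5 higher and none lower. Of all protein-coding genes tested 0.0754% were called higher and 0.644% lower in cerebellum, 0.535% and 0.0137% in the anterior pituitary, 1.47% and 0.637% in the posterior pituitary and 3.44% and 2.83% in cortex, and the counts of the lists below stand against the same shares. In the pituitary libraries the regions themselves had no peak past the filter.

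Of 19 Wnt feedback regulators and targets 7 were nearest to 14 regions. Over the list, none of 18 tested was called in cerebellum, 4 were higher in the anterior and 6 in the posterior pituitary, and in cortex 3 of 16 were higher and 1 lower. Tnfrsf19 had 4 regions, the highest being chr14:61085405-61085694 (fold enrichment 4.66 and 6.09) and chr14:61063876-61064219 (fold enrichment 5.38 and 4.63), the latter with the letters printed above. Its RNA was at 182 and 315 CPM in WT and 507 and 454 CPM in stabilized cerebellum ECs (log2 fold change 0.95 ± 0.46, adjusted p = 0.529), with no overlap and no call. In the pituitary it was at 0 in all 4 WT libraries, with 0 and 0 CPM in WT and 19.6 and 61.9 CPM in stabilized anterior (adjusted p = 0.000106) and 0 and 0 CPM in WT and 288 and 307 CPM in stabilized posterior pituitary ECs (adjusted p = 2.9e-05).

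Nkd1, an inhibitor that Wnt signaling induces, had chr8:88538574-88538914 (fold enrichment 2.32 and 2.4) and chr8:88555703-88556211 (fold enrichment 5.14 and 3.53), both intronic. It had 101.2 and 110.5 CPM in WT and 767 and 573 CPM in stabilized cerebellum ECs (log2 fold change 2.66 ± 0.66, adjusted p = 0.118), and Axin2, with no region near, had 89.4 and 100.6 CPM in WT and 309 and 216 CPM in stabilized ECs (1.47 ± 0.95, adjusted p = 0.585). Neither gene's groups overlapped and neither was called, although without the filter on low counts Axin2 passed the test (adjusted p = 0.00484, range over its alternatives 0.00484 to 0.926). In the anterior pituitary Axin2 had 9.41 and 0.157 CPM in WT and 25.8 and 57.6 CPM in stabilized ECs (3.12 ± 1.02, adjusted p = 0.404), short of the threshold, and passed the test without the filter on low counts (adjusted p = 1.22e-12), without either stabilized library (8.39e-05 and 0.0280) and without WT replicate 1 (3.08e-05), with a range over its alternatives of 1.22e-12 to 0.498. It was called higher in the posterior pituitary, with 2.06 and 1.399 CPM in WT and 78.3 and 108 CPM in stabilized ECs (5.73 ± 1.16, adjusted p = 0.0291), a call lost without WT replicate 2, and in cortex, with 23.98 and 19.4 CPM in WT and 139 and 135 CPM in stabilized bound RNA (2.66 ± 0.27, adjusted p = 0.00119). Nkd1 was called higher in both pituitary lobes and in cortex, with 1.75 and 0.0608 CPM in WT and 168 and 210.4 CPM in stabilized posterior pituitary ECs (7.56 ± 0.84, adjusted p = 0.000544) and 60.4 and 35.8 CPM in WT and 331 and 217 CPM in stabilized cortex bound RNA (2.51 ± 0.43, adjusted p = 0.0118). Notum had 85.1 and 47.9 CPM in WT and 85.5 and 43.9 CPM in stabilized cerebellum ECs (-0.04 ± 0.56, adjusted p = 1), where the groups overlapped, and was called higher in both pituitary lobes, with 0 and 0 CPM in WT and 28.97 and 45.5 CPM in stabilized posterior pituitary ECs (adjusted p = 0.000258).

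Lef1, a TCF/LEF factor and a common mark of active signaling in brain ECs, had 3 regions, 2 of them with TCF/LEF letters, 173407 and 106539 bp upstream of its start. It had 398 and 327 CPM in WT and 354 and 379.7 CPM in stabilized cerebellum ECs (log2 fold change 0.02 ± 1.05, adjusted p = 1), and the groups overlapped. In posterior pituitary ECs it had 1.03 and 5.84 CPM in WT and 162 and 152 CPM in stabilized (adjusted p = 0.0528), which did not pass the test. Znrf3, which removes Wnt receptors, had 30.3 and 32.9 CPM in WT and 83.2 and 84.5 CPM in stabilized cerebellum ECs (1.41 ± 1.02, adjusted p = 0.638). Nkd2, Prickle1 and the Wnt co-receptor Lrp6, with chr6:134592500-134592850 (fold enrichment 5.62 and 4.75), were called in no tissue either.

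Of 17 barrier transporters 7 were nearest to 9 regions. Over the list none was called in cerebellum, 6 were higher in the anterior pituitary, 12 in the posterior pituitary and 3 in cortex. Slc2a1, the glucose transporter of the BBB, had 3033 and 4439 CPM in WT and 2730 and 3293 CPM in stabilized cerebellum ECs (log2 fold change -0.31 ± 0.32, adjusted p = 0.795) and 25.5 and 31.03 CPM in WT and 1422 and 1690 CPM in stabilized posterior pituitary ECs (5.78 ± 0.40, adjusted p = 1.61e-05). Slco1c1, the thyroxine transporter, had 3792 and 4977 CPM in WT and 4980 and 5558 CPM in stabilized cerebellum ECs (0.27 ± 0.29, adjusted p = 0.815) and 3.43 and 3.65 CPM in WT and 406 and 339 CPM in stabilized posterior pituitary ECs (6.72 ± 0.38, adjusted p = 2.62e-06). Both genes were abundant in cerebellum ECs of either genotype and low in WT pituitary ECs. Slc7a1, the cationic amino acid transporter, whose 2 intronic regions both had TCF/LEF letters, had 669 and 1211 CPM in WT and 1699 and 1961 CPM in stabilized cerebellum ECs (0.96 ± 0.40, adjusted p = 0.456) and was called higher in the posterior pituitary (2.92 ± 0.42, adjusted p = 0.00384). Slco1a4, with 2 regions, was called higher in both lobes, Abcg2 in the posterior lobe (1.18 ± 0.25, adjusted p = 0.037), and Slc19a3, the thiamine transporter, in the posterior lobe and in cortex. Abcc4 was not called.

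Of 10 tight junction genes 4 were nearest to 5 regions, and of these Ocln was called, higher in the posterior pituitary, with 5.77 and 0.243 CPM in WT and 148 and 152 CPM in stabilized ECs (log2 fold change 5.58 ± 0.84, adjusted p = 0.00514). Tjp1 had 1452 and 1591 CPM in WT and 1979 and 2200 CPM in stabilized cerebellum ECs (0.46 ± 0.25, adjusted p = 0.54), and F11r had 98.99 and 122 CPM in WT and 50.4 and 58.2 CPM in stabilized ECs (-1.02 ± 0.30, adjusted p = 0.233). Neither gene's groups overlapped and neither was called. Of 8 barrier-linked transcription factors 3 had regions. Sox17, a factor of arterial and brain ECs, had the highest region beside any listed gene, chr1:4640837-4641395 (fold enrichment 7.89 and 6.94), and 75.8 and 62.3 CPM in WT and 50.3 and 17.01 CPM in stabilized cerebellum ECs (-1.04 ± 0.62, adjusted p = 0.564). Ppard, a nuclear receptor, was called higher in cortex (2.66 ± 0.31, adjusted p = 0.00249).

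Genes of permeable, arterial and adhesive endothelium had regions as well. Vwf, the von Willebrand factor, had 482 and 538 CPM in WT and 267 and 418 CPM in stabilized cerebellum ECs (log2 fold change -0.57 ± 0.42, adjusted p = 0.647) and 0.601 and 0.503 CPM in WT and 35.4 and 66.2 CPM in stabilized anterior pituitary ECs (6.51 ± 0.56, adjusted p = 8.49e-05). Vcam1, a leukocyte adhesion molecule with a region 8592 bp upstream of its start, had 176 and 239.6 CPM in WT and 104 and 103 CPM in stabilized cerebellum ECs (adjusted p = 0.429) and was called higher in both pituitary lobes, with 18.3 and 16.7 CPM in WT and 101 and 99.5 CPM in stabilized posterior pituitary ECs (2.52 ± 0.42, adjusted p = 0.00993). Efnb2, the arterial ephrin, with 2 regions, was the 1 gene of the 39 called lower in the posterior lobe (-1.40 ± 0.26, adjusted p = 0.0206). Cxcl12, a chemokine of arterial ECs, was called higher in the anterior lobe (2.87 ± 0.56, adjusted p = 0.0498). Of 12 BMP and TGF-beta genes 4 had regions, and the inhibitors Smad6 (1.83 ± 0.41, adjusted p = 0.0331) and Smad7 (1.46 ± 0.27, adjusted p = 0.0156) were called higher in cortex, where Smad6 turned lower with length-scaled counts. Erg, Fli1, Etv6, Mef2c, Jag1, Hes1, Selp, Apln, Tgfbr2 and Tgfb2 were called in no tissue. Among the listed genes the pituitary calls of Slc2a1 in the anterior lobe (without WT replicate 2), of Abcg2 (without either stabilized library) and of Efnb2 (also without WT replicate 2) rested on single libraries, as did the cortex calls of Slc19a3 (stabilized replicate 2), Smad7 (stabilized replicate 1) and Smad6 (either stabilized library or WT replicate 2). Of the calls named here, length-scaled counts ended the anterior calls of Slc2a1, Slco1a4, Vwf and Cxcl12, the posterior calls of Slc7a1, Slco1a4, Abcg2, Slc19a3, Efnb2 and Vcam1, and the cortex calls of Nkd1, Slc19a3 and Ppard. The fits of each lobe alone ended the anterior calls of Tnfrsf19, Notum, Slc2a1, Slco1c1, Slco1a4 and Cxcl12 and the posterior calls of Nkd1, Abcg2, Slc19a3, Ocln, Efnb2 and Plpp3.

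**Figure D5:**
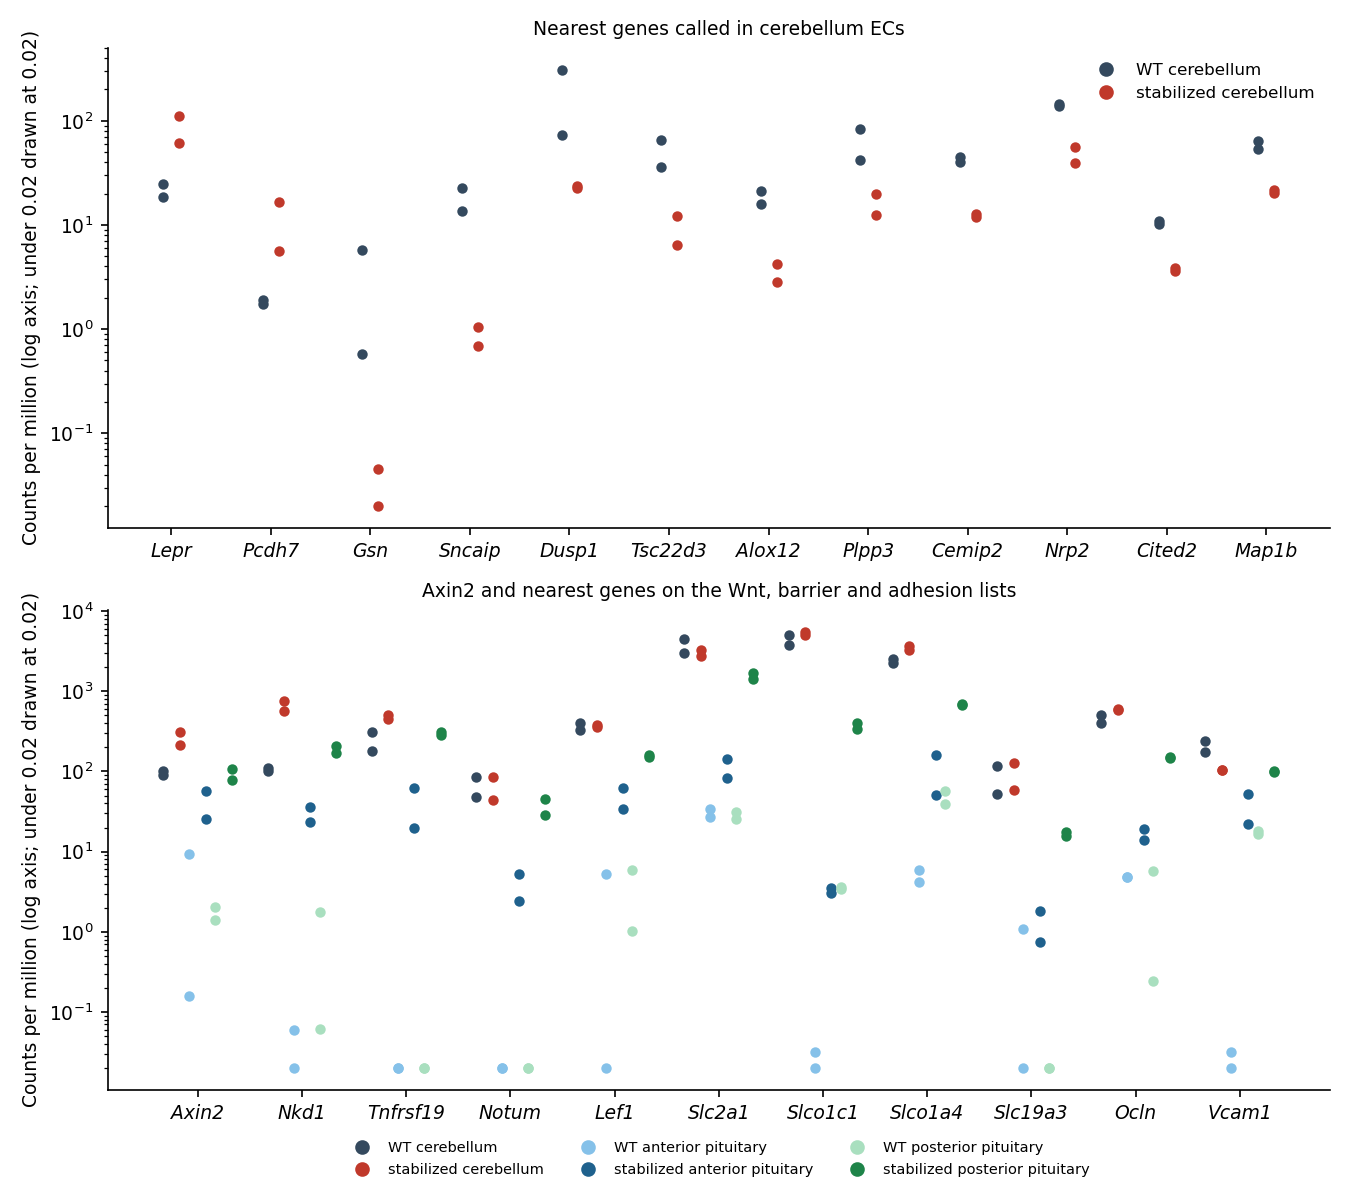
RNA of named nearest genes in CPM on a log axis, 1 point per library, with values under 0.02 drawn at 0.02. Top, the 12 genes called in cerebellum ECs, and bottom, Axin2 and 10 listed nearest genes in 3 tissues. The 12 genes were chosen by their call in these cerebellum libraries, so the lack of overlap of their groups there is no further support. Slc2a1 and Slco1c1 are high in cerebellum ECs of both genotypes and low in WT pituitary ECs.

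Over all nearest genes, 29 were called higher in anterior pituitary ECs (2.58%, background 0.535%) and none lower (background 0.0137%), with 25 at an unadjusted p under 0.05 in the lower direction (2.22%, of all 1.66%) and 4 called by DESeq2 (0.355%, of all 0.350%). In posterior pituitary ECs 52 were called higher (4.62%, background 1.47%) and 21 lower (1.87%, background 0.637%). The nearest genes of the other distal stabilized cerebellum regions were called higher at 1.07% and 2.84% in the lobes, and those of the regions of both cerebellum genotypes at 3.01% and 7.53%, with the stabilized-only regions between them. None of these differences was tested. Genes whose regions had TCF/LEF letters were called higher at 2.53% and the rest at 2.59% in the anterior lobe, and at 5.42% and 4.36% in the posterior lobe. Fits of each lobe alone called 7 higher in the anterior (0.675%, of all protein-coding genes 0.368%) and 16 in the posterior lobe (1.58%, of all 0.724%), and length-scaled counts 16 (1.42%, of all 0.337%) and 30 (2.67%, of all 0.701%). Without stabilized anterior pituitary replicate 2, the library with the divergent tissue label, 46 were higher in the anterior lobe (3.98%, of all 1.006%), and without replicate 1 there were 57 (4.91%, of all 1.34%). In the posterior lobe the lower count was 2 without stabilized replicate 1 (0.173%, of all 0.0841%), 10 without stabilized replicate 2 (0.860%, of all 0.220%) and 13 without WT replicate 2 (1.115%, of all 0.251%). Without WT replicate 1 the counts were 94 higher (8.08%, where 4.73% of all protein-coding genes were) and 64 lower (5.50%, of all 2.25%). The 10 endothelial markers summed to 3130 and 4752 TPM in WT and 3462 and 3005 TPM in stabilized anterior pituitary ECs, with none called, and to 6186 and 4199 TPM against 2246 and 1932 TPM in the posterior lobe, with 1 called higher and 2 lower. Mural markers in the posterior lobe summed to 162.9 and 84.3 TPM in WT and 55.01 and 48.5 TPM in stabilized ECs, with 1 of 10 called in each direction. The 7 immediate early genes summed to 2317 and 3231 TPM in WT and 721 and 536 TPM in stabilized anterior pituitary ECs and to 1952 and 617 TPM against 220 and 206 TPM in the posterior lobe, with none called. Endocrine markers, none called, summed to 6760 and 4364 TPM against 4632 and 4037 TPM in the anterior lobe, and in the posterior lobe to 3344 TPM in WT replicate 1, 473 in WT replicate 2 and 346 and 808 TPM in stabilized ECs. Lymphatic markers in the posterior lobe summed to 39.6 and 46.3 TPM in WT and 10.6 and 8.84 TPM in stabilized ECs. Neuron markers there summed to 23.3 and 19.6 TPM against 1.84 and 6.34 TPM. No gene of either list was called, and in the anterior lobe the sums of both lists overlapped between genotypes. The part of these markers in the pituitary counts was not tested.

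The lobes shared 18 of these genes, 62.1% of 29 and 34.6% of 52, and among all protein-coding genes 52, which is 66.7% of 78 and 24.3% of 214. Each lobe was compared with WT libraries of its own, but by the study's methods the lobes of a replicate were separated from the pituitaries of the same pooled mice, so the animals are shared. Fn1, fibronectin, had 2717 and 3860 CPM in WT and 6769 and 6206 CPM in stabilized cerebellum ECs (log2 fold change 0.98 ± 0.37, adjusted p = 0.401) and 8.38 and 4.81 CPM in WT and 636 and 1199 CPM in stabilized anterior pituitary ECs (7.12 ± 0.48, adjusted p = 1.47e-05). Wnt5a, a Wnt ligand with 4 regions, had 87.3 and 64.4 CPM in WT and 302 and 211 CPM in stabilized cerebellum ECs (1.76 ± 0.36, adjusted p = 0.0615), with no overlap and short of the threshold. Ptn, a heparin-binding growth factor with 4 regions, had 5.21 and 1.16 CPM in WT and 383 and 343 CPM in stabilized posterior pituitary ECs (6.79 ± 0.77, adjusted p = 0.000561). Ly86, expressed by macrophages and B cells, was also among the 18, with 0 and 0 CPM in WT and 12.1 and 23.1 CPM in stabilized anterior pituitary ECs. The calls of Fn1 in both lobes and of Ptn in the posterior lobe held under all alternatives run. The anterior calls of Wnt5a and Ly86 were lost with length-scaled counts and without either WT library, that of Wnt5a also without stabilized replicate 2 and that of Ly86 in the fit of the lobe alone. The lobe fits also ended the anterior call of Ptn and the posterior call of Wnt5a, and the posterior call of Ly86 was lost with length-scaled counts and without stabilized replicate 1. In the anterior libraries 10 microglia and macrophage markers summed to 46.5 and 37.8 TPM in WT and 322.5 and 516.9 TPM in stabilized ECs, and in the posterior lobe to 51.8 and 44.9 TPM against 596.5 and 384.3 TPM. Of 9 tested, none was called in the anterior and 2 in the posterior lobe, and their part in the pituitary results was not tested. In bulk libraries, more cells of a type and more RNA per cell cannot be told apart.

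In cortex bound RNA 60 of 1128 tested nearest genes were called higher (5.32%, background 3.44%) and 30 lower (2.66%, background 2.83%). The other distal stabilized cerebellum regions gave 5.62% and 2.58%. Without stabilized replicate 1 the counts were 22 (1.88%, where 1.06% of all protein-coding genes were) and 5 (0.428%, of all 0.465%), and without stabilized replicate 2 they were 25 (2.14%, of all 1.46%) and 7 (0.599%, of all 0.841%). Without WT replicate 1 the higher count was 102 (8.80%, of all 4.51%). Markers of several cell types moved with these counts. Endothelial markers summed to 1148 and 459.7 TPM in WT and 966.3 and 808 TPM in stabilized cortex RNA, with a median log2 fold change of 0.94 over the list and 2 of 10 called higher. Neuron markers summed to 1270 and 1490 TPM against 357 and 327 TPM (1 of 8 tested called lower), oligodendrocyte markers to 1160 and 1216 TPM against 167 and 184 TPM (1 of 9 lower), astrocyte markers to 615 and 792 TPM against 263 and 304 TPM (none of 8 called), microglia and macrophage markers to 4766 and 3381 TPM against 1659 and 1442 TPM (none of 10 called) and erythrocyte markers to 456 and 724 TPM against 64.4 and 56.6 TPM (1 of 5 lower). Mural markers summed to 81.9 and 34.3 TPM against 13.8 and 19.1 TPM (none of 10 called), and immediate early genes to 248.8 and 98.8 TPM against 25.6 and 26.2 TPM (1 of 7 lower). Their part in the cortex results was not tested. Atp10a, a lipid flippase with 2 regions, had 71.6 and 31.6 CPM in WT and 379 and 431 CPM in stabilized cortex RNA (log2 fold change 2.97 ± 0.38, adjusted p = 0.00387). Bsg, a partner of monocarboxylate transporters, had 1378 and 793 CPM in WT and 2992 and 2859 CPM in stabilized cortex RNA (1.43 ± 0.31, adjusted p = 0.0305), and Tbc1d4, a regulator of glucose transporter traffic, gave 1.73 ± 0.37, adjusted p = 0.0266. Stabilized libraries were above WT libraries in each. The cortex call of Atp10a held under all alternatives run, while those of Bsg and Tbc1d4 were lost without either stabilized library, that of Bsg also in the fit of the cortex libraries alone and that of Tbc1d4 with length-scaled counts. Plpp3 was called lower in cerebellum, posterior pituitary and cortex, the last 2 calls lost without stabilized replicate 1 of the tissue, and the posterior call also with length-scaled counts. Pdgfb, the gene whose sequences drive the CreER that both cortex genotypes carried, was called higher in cortex (2.02 ± 0.38, adjusted p = 0.0162) and not in sorted ECs.

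In WT cerebellum, GFP-positive against GFP-negative cells had 189 of 1201 tested nearest genes called higher (15.7%, background 5.7%) and 97 lower (8.08%, background 8.81%). The other distal stabilized cerebellum regions gave 12.5% higher and the regions of both cerebellum genotypes 20.9%. None of these differences was tested.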

How the data were processed

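The authors aligned ATAC-seq reads to mm10 with Bowtie2 2.3.2, removed duplicates with Picard and called peaks per library with MACS2 2.1.1.20160309. The deposited peak lists hold a display score, the fold enrichment over local background (a ratio), and -log10 p and q values, with the summit offset as an other number. For RNA-seq the authors deposited estimated counts and TPM per transcript from Salmon 0.10.2 on Ensembl GRCm38 transcripts. Kallisto 0.44.0 and deepTools are also in the submitters' processing notes.

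Peaks past both thresholds were merged across the 12 libraries where they overlapped by 1 bp. A region's summit was that of the stabilized cerebellum library with the higher fold enrichment. Place and nearest protein-coding start came from GENCODE M21, and bases and repeat masking from the RefSeq GRCm38.p6 genome. Estimated counts were summed to genes, which left out 402 of 130740 transcripts without a match, and were rounded to whole numbers. CPM are these counts over TMM-scaled library sizes.

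Genes were tested with edgeR 4.0.16 (TMM, filterByExpr, quasi-likelihood test, one coefficient per group) in R 4.3.3, with all 12 sorted EC libraries in one fit and all 8 bound RiboTag libraries of cortex and choroid plexus in another, and Benjamini-Hochberg adjustment over the 17915 and 16775 genes tested. DESeq2 1.42.0 was an alternative. The other alternatives were RLE scaling, no filter on low counts, length-scaled counts, only the groups compared, a replicate block, each replicate left out, the library with the divergent tissue label left out, other peak thresholds and other definitions of a near gene. Those with length-scaled counts were added after the data were seen, as were those for the counts of nearest genes called in the pituitary, other than DESeq2, the replicate block and, in the anterior lobe, the fit without the library with the divergent label. Region and motif summaries used Python 3.11.15, pysam 0.24.0 and scipy 1.17.1. Scripts were tested on simulated data.

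The regions and gene lists were chosen with earlier results of these data known. Genes named are the nearest genes called in cerebellum ECs, those of the 10 highest regions, up to 8 nearest to most regions, listed genes nearest to a region, and Ctnnb1, Axin2 and Pdgfb as checks. Fn1, Wnt5a, Ptn, Ly86, Atp10a, Bsg and Tbc1d4 were named after their values were seen. Results of a few of these genes are not reported here.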

Additional observations from a re-analysis of the deposited data

Results flagged for a closer look

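For some named genes the difference between stabilized and WT ECs was not the same in cerebellum as in a pituitary lobe, by the interaction contrast of the edgeR fit adjusted over all genes. Against the anterior lobe, the log2 fold change in cerebellum minus that in the lobe was 2.72 for Lepr, -8.48 for Gsn, -4.74 for Sncaip, -3.31 for Alox12, -2.10 for Map1b, -7.07 for Nkd1, -9.70 for Notum, -12.13 for Tnfrsf19, -7.10 for Slco1c1, -3.85 for Slco1a4, -7.08 for Vwf and -11.86 for Vcam1, with adjusted p from 5.34e-05 to 0.0473. Against the posterior lobe it was -7.79 for Gsn, -4.90 for Nkd1, -12.99 for Notum, -14.99 for Tnfrsf19, -6.09 for Slc2a1, -6.45 for Slco1c1, -3.27 for Slco1a4, -11.66 for Slc19a3, -5.22 for Ocln and -3.52 for Vcam1, with adjusted p from 2.33e-05 to 0.0471. The value for Lepr is positive, with a log2 fold change of 1.98 in cerebellum and -0.73 in the lobe. Values of genes with WT pituitary libraries at 0, such as Tnfrsf19, Notum, in the anterior lobe Vcam1 and Slco1c1 and in the posterior lobe Slc19a3, and that of Gsn, with stabilized cerebellum libraries at 0 and 0.0455 CPM, depend on the prior count of the fit and give a direction without a size. With length-scaled counts the differences of Lepr, Gsn, Sncaip, Alox12, Map1b, Nkd1, Slco1a4 and Vwf against the anterior lobe and of Gsn, Nkd1, Slco1a4, Slc19a3, Ocln and Vcam1 against the posterior lobe no longer passed the test.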

How the results depend on the processing

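The 1732 regions became 1741 to 3325 when 1 library was left out, and most when stabilized cerebellum replicate 2 (3325) or 1 (2667) was. The TCF/LEF share of 19.6% was 21.98% with fold enrichment over 3, 11.0% within 50 bp and 29.0% within 200 bp of the summit, and the promoter share was 9.01% with promoters of 2500 bp. Of nearest genes, DESeq2 called 12 higher and 37 lower in cerebellum, 63 and 4 in the anterior lobe, 101 and 62 in the posterior lobe and 61 lower in cortex. For DESeq2 these were 1.07% and 3.29% of tested nearest genes in cerebellum, where it called 0.631% and 3.80% of all protein-coding genes, 5.595% and 0.355% in the anterior lobe (of all 2.60% and 0.350%), 8.97% and 5.506% in the posterior lobe (of all 4.92% and 2.28%), and 5.41% lower in cortex (of all 5.20%). Without the filter on low counts these were 15 and 34, 71 and 7, 93 and 59, and 106 and 72, over 1219 nearest genes tested in sorted ECs and 1259 in cortex (in cerebellum 1.23% and 2.79%, of all 0.533% and 2.34%, in the anterior lobe 5.82% and 0.574%, of all 1.91% and 0.3615%, in the posterior lobe 7.63% and 4.84%, of all 3.18% and 1.88%, and in cortex 8.42% and 5.72%, of all 5.19% and 5.15%). Length-scaled counts gave 0 and 1 in cerebellum (0.0890% lower, of all 0.0550% and 0.371%), 16 higher in the anterior lobe (1.42%, of all 0.337%), 30 and 4 in the posterior lobe (2.67% and 0.356%, of all 0.701% and 0.158%) and 28 and 9 in cortex (2.48% and 0.797%, of all 1.465% and 0.749%). Fits of only the groups compared gave 0 and 0 (of all 0.0166% each), 7 higher (0.675%, of all 0.368%), and 16 and 2 (1.58% and 0.198%, of all 0.724% and 0.0636%). Without the library with the divergent tissue label there were 11 and 23 in cerebellum, 46 and 1 in the anterior lobe and 41 lower in the posterior lobe (0.952% and 1.99%, of all 0.305% and 1.65%, 3.98% and 0.0865%, of all 1.006% and 0.104%, and 3.55%, of all 1.43%). Genes with bodies within 100 kb gave 21 lower, 44 higher, 91 higher and, in cortex, 148 and 70, of 2997 genes tested in sorted ECs (0.701% lower in cerebellum, of all 0.644%, 1.47% higher in the anterior lobe, of all 0.535%, and 3.04% higher in the posterior lobe, of all 1.47%) and 2981 in cortex (4.965% and 2.35%, of all 3.44% and 2.83%). Starts within 10 kb gave 0 and 1, 11 higher, 23 and 6, and 22 and 11, of 362 and 357 tested, against the same shares of all genes (0.276% lower in cerebellum, of all 0.644%, 3.04% higher in the anterior lobe, 6.35% and 1.66% in the posterior lobe, of all lower 0.637%, and 6.16% and 3.08% in cortex). Counts with different numbers tested compare by their shares. Regions with fold enrichment over 3, or absent from the unfiltered lists, gave 1 higher in cerebellum (0.107% and 0.0907%, of all 0.0754%). Leaving out 1 library gave 2 to 5 higher and 11 to 38 lower in cerebellum, 31 to 57 and 0 to 1 in the anterior lobe, 47 to 94 and 2 to 64 in the posterior lobe, and 22 to 102 and 5 to 30 in cortex. The share of all protein-coding genes called moved across these fits too, so these ranges do not measure instability of the nearest genes alone. In each of these fits the share called higher was larger among nearest genes than among all. The share called lower was larger among nearest genes in cerebellum and the posterior lobe, and smaller in the anterior lobe and cortex. These fits left 1 library in a group, and the differences in share were not tested. RLE scaling moved no count by over 1.5 times. Replicate numbers do not pair WT with stabilized samples (correlations of deviations from -0.04 to 0.03), and the replicate block gave 3 higher and 11 lower in cerebellum, 37 higher in the anterior lobe, 61 and 28 in the posterior lobe, and 46 and 24 in cortex (0.266% and 0.977%, of all 0.0960% and 0.706%, 3.29%, of all 0.727%, 5.42% and 2.49%, of all 1.67% and 0.795%, and 4.08% and 2.13%, of all 2.785% and 2.40%). Smad6 in cortex turned to -1.43 with length-scaled counts. Of the alternatives for named genes 687 kept their direction and side of the threshold, 125 lost it, 6 passed it and 1 reversed. The causes were not tested. With 2 libraries per group, changes of small size are not detectable, and peaks absent at this depth are not shown to be closed chromatin.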
